A study of Mus musculus with 12 samples.

Results

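Mitochondrial cristae and membrane shaping was followed through 10 genes in adipocytes given a control siRNA or an siRNA against Zfp407. They were the cristae-organising genes Apoo, Apool, Immt, Chchd3 and Chchd6, the outer membrane assembly gene Samm50, the fusion GTPases Opa1 and Mfn2, and the inner membrane proteases Oma1 and Yme1l1. Each was taken as the row of the deposited expression table that carries its name, 10 rows of 39248. Apoo was selected on a measured value, its large fall in the comparison described here, and the 9 others for their function, with earlier results of these data known. The difference of Apoo is therefore given as a description, with no test.

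RNA had been sequenced from 12 libraries of 3T3-L1 cells, a mouse line of preadipocytes that turns into fat-storing adipocytes in culture. All cells were differentiated and electroporated with 0.75 nmol of siRNA 2 days after differentiation. The control arm had 6 libraries with a control siRNA, and the knockdown arm had 6 libraries with an siRNA against Zfp407, a zinc finger gene, 3 with each of 2 siRNAs. Each library came from its own electroporation of the 1 cell line. The columns do not mark the siRNA, so the knockdown libraries are numbered 1 to 6 as in the table and form 1 arm.

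The inner mitochondrial membrane folds into cristae, which carry the respiratory chain and ATP synthase. The MICOS complex holds the narrow necks of these folds open and bridges them to the outer membrane through the sorting and assembly machinery, of which SAMM50 is the core. OPA1, a dynamin-like GTPase, fuses inner membranes and tightens cristae necks, and it is cut by the proteases OMA1 and YME1L1, while MFN2 fuses outer membranes.

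The libraries as a whole were of like depth. FPKM (fragments per kilobase of transcript, scaled to mapped fragments) summed to between 2772930 and 3748490 per library, and the depths relative to control library 1 lay between 0.88 and 1.15, while absolute depth is unknown. The mitochondrial chromosome held 19.4% to 26.3% of summed FPKM in every library but knockdown library 6, where it held 32.8%. Zfp407 itself ran from 2.70 to 3.16 FPKM in control and from 1.60 to 2.13 FPKM in knockdown libraries, so its arms did not overlap. All 8 adipocyte markers were abundant, the lowest averaging 249.7 FPKM, with sums of 18730 to 22847 FPKM in control and 17291 to 22084 FPKM in knockdown libraries. Of these 8, 3 were called lower (Cfd, Adipoq and Cidec) and 0 higher by the test described below, which called 24.8% of all rows lower and 11.6% higher. Preadipocyte markers summed to 900.1 to 1058 FPKM and 894 to 1164 FPKM, and 0 of the 5 tested were called. Immune, endothelial and muscle markers summed to at most 0.165, 0.391 and 0.0215 FPKM per library.

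Apoo encodes a small apolipoprotein-like subunit of MICOS. The table also holds a row for a processed copy of it, Apoo-ps, and the identity of these 2 rows bears on how the Apoo value was estimated. Apoo lies on chromosome X, 94367117 to 94417093 on GRCm38 (plus strand). Apoo-ps is annotated as a processed pseudogene on chromosome 13, 107414144 to 107414729 (minus strand), with no intron. Its 586 bases matched the coding sequence of Apoo, 594 bases long in the transcript compared, from base 9 on with 0 mismatches. The first 120 of these bases are shown 5′ to 3′ from the GRCm38 reference and are the same in both.
Apoo: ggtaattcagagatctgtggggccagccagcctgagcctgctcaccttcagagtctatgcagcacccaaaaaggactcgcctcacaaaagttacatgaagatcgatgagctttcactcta
Apoo-ps: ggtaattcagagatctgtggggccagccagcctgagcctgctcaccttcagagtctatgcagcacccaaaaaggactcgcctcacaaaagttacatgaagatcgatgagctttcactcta
Of all 50-base stretches in annotated Apoo transcripts, 41.2% also occur in Apoo-ps, so reads from these stretches cannot be assigned to 1 of the 2 by sequence. In all, 50-base stretches of Apoo occur in 2 other annotated genes, of which Apoo-ps shares the most. No such stretch of Apool, Chchd3, Chchd6, Opa1, Mfn2 or Oma1 occurs in another annotated gene. The shares were 3.01% for Immt, 1.00% for Samm50 and 0.452% for Yme1l1.

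Apoo was lower in every knockdown library. Control libraries 1 to 6 held 35.9, 33.6, 36.6, 37.1, 39.5 and 40.8 FPKM. Knockdown libraries 1 to 6 held 6.07, 6.41, 8.47, 5.70, 6.88 and 6.98 FPKM. The lowest control library thus stood far above the highest knockdown library, and knockdown library 3 was the highest of its arm. The mean went from 37.3 ± 2.60 FPKM (SD, n = 6) to 6.75 ± 0.973 FPKM (SD, n = 6), a change of -81.9%. On the scale of log2(FPKM + 1), which understates changes of low values, the difference was -2.31 ± 0.08 (SE). With 0.1 added in place of 1 it was -2.46, and the authors' deposited table lists a log2 fold change of -2.45.

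The Apoo-ps row moved with it. It held 6.43, 5.43, 6.52, 5.92, 6.28 and 6.74 FPKM in the control libraries. The knockdown libraries held 0.906, 1.09, 1.35, 0.854, 0.916 and 1.15 FPKM. The arms again lay apart, with knockdown library 3 the highest of its arm, as it was for Apoo. The ratio of the Apoo-ps value to the Apoo value went from 0.167 ± 0.00925 to 0.155 ± 0.0135 (SD, n = 6 each), with ranges of 0.159 to 0.179 in control and 0.133 to 0.171 in knockdown libraries. The sources used here do not say how the authors' estimation divided reads between the rows. Added together, the rows went from 43.5 ± 2.96 to 7.80 ± 1.15 FPKM (SD, n = 6 each), a difference of -2.35 on the log2(FPKM + 1) scale. Because the copy is the smaller row and fell alike, the sum had to stay near the value for Apoo. It is no check on shared reads.

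**Figure D1:**
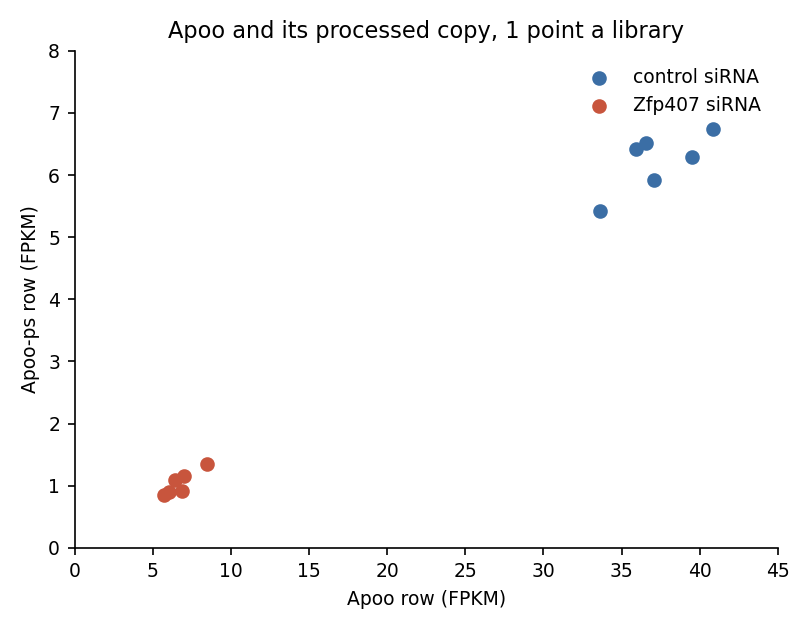
FPKM of the Apoo-ps row (vertical axis) against FPKM of the Apoo row (horizontal axis), 1 point a library, control in blue and Zfp407 siRNA in red. The 6 control points lie above 33.6 FPKM of Apoo and 5.43 FPKM of Apoo-ps, and the 6 knockdown points lie below 8.47 and 1.35 FPKM.

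Rows that share sequence with pseudogenes, Apoo included, give a background for this. Among protein-coding rows tested, 1949 of 6398 with no 50-base stretch in a pseudogene were called lower (30.5%). With above 0 to 20% of stretches shared, 781 of 2936 rows were called lower (26.6%). With above 20 to 40% shared, 29 of 154 were (18.8%). Of the 57 rows that share more than 40% of their stretches with pseudogenes, 5 were called lower (8.77%). Against a fold of 1.2 the counts, in the same order, were 305 (4.77%), 99 (3.37%), 1 (0.649%) and 2 (3.51%). Apoo, selected for its fall, is among those 57 rows and adds to both of their counts, which are therefore not counts over other genes alone. The part of shared reads in its own value was not tested.

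Apool, the paralogue of Apoo and a MICOS subunit that binds the membrane lipid cardiolipin, was the member with the next largest fall. It held 44.3, 43.8, 46.0, 50.7, 55.7 and 48.9 FPKM in the control libraries. The knockdown libraries held 29.0, 29.5, 28.8, 29.1, 31.8 and 30.9 FPKM. These arms did not overlap, and the knockdown libraries lay much closer to each other than the controls did. The mean fell from 48.2 ± 4.51 to 29.8 ± 1.21 FPKM (SD, n = 6 each), a change of -38.1%. The log2 difference was -0.67 ± 0.06 (SE), with an adjusted p of 3.6e-06 by limma and an exact two-sided permutation p of 0.0022, the smallest that divisions of the 12 libraries into arms allow. Apool lies on the same chromosome as Apoo, at 112311334 to 112372755 of X. The authors' deposited table marks it as significant, with a q-value of 0.00595.

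The 2 paralogues shared no 50-base stretch and fell by different amounts. The level of Apoo over that of Apool went from 0.775 ± 0.0480 to 0.226 ± 0.0349 (SD, n = 6 each). The range was 0.710 to 0.836 in control and 0.195 to 0.295 in knockdown libraries. Their summed level went from 85.5 ± 6.62 to 36.6 ± 1.56 FPKM (SD, n = 6 each). FPKM is scaled to transcript length, so levels of different genes are set side by side on it, here and below.

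The other 3 MICOS members did not move as 1 group. Immt encodes MIC60, the core subunit that bends the membrane and anchors the complex. It held 187.2, 176.5, 189.4, 187.7, 204.0 and 193.9 FPKM in control and 179.8, 179.35, 177.7, 204.6, 210.4 and 180.2 FPKM in knockdown libraries. The arms overlapped over most of their range, and the 2 highest values of all 12 were those of knockdown libraries 5 and 4. The log2 difference was -0.01 ± 0.05 (SE), with a 95% interval of -0.13 to 0.11 and an adjusted p of 0.896 by limma. The level of Apoo relative to Immt accordingly went from 0.196 ± 0.00747 to 0.0361 ± 0.00673 (SD, n = 6 each).

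Chchd3 encodes MIC19, a subunit that joins MIC60 to SAMM50. It held 187.8, 165.1, 184.8, 181.2, 190.6 and 200.7 FPKM in the control libraries and 135.8, 124.0, 131.7, 164.7, 160.8 and 156.8 FPKM in the knockdown libraries. All knockdown libraries were below the lowest control, by little for library 4 and by most for library 2. The mean fell from 185.0 ± 11.8 to 145.7 ± 17.2 FPKM (SD, n = 6 each), a log2 difference of -0.35 ± 0.08 (SE) with an adjusted p of 0.00360 by limma. Chchd6 encodes MIC25, a relative of MIC19 in the same part of the complex. It held 46.4, 39.98, 44.0, 41.5, 42.2 and 48.9 FPKM in control and 34.1, 35.5, 38.0, 39.4, 40.7 and 39.3 FPKM in knockdown libraries. Here 5 of 6 knockdown libraries lay below the lowest control, and the sixth, library 5, lay within the control range. The log2 difference was -0.21 ± 0.06 (SE), with an adjusted p of 0.0143 by limma and an exact permutation p of 0.0043.

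Samm50, the outer membrane partner of MICOS, encodes the channel that inserts barrel-shaped proteins. It held 80.8, 75.7, 75.8, 78.4, 80.4 and 80.9 FPKM in control and 83.0, 83.0, 79.0, 84.6, 87.0 and 79.3 FPKM in knockdown libraries. The arms overlapped, and all 6 knockdown libraries stood above the control mean of 78.7 FPKM. The log2 difference was 0.07 ± 0.03 (SE), with a 95% interval of -0.01 to 0.15 and an adjusted p of 0.137 by limma. It passed the threshold when each library was centred on its median (0.10, adjusted p = 0.0156 by limma) or after quantile normalization (0.12, adjusted p = 0.00878 by limma).

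**Figure D2:**
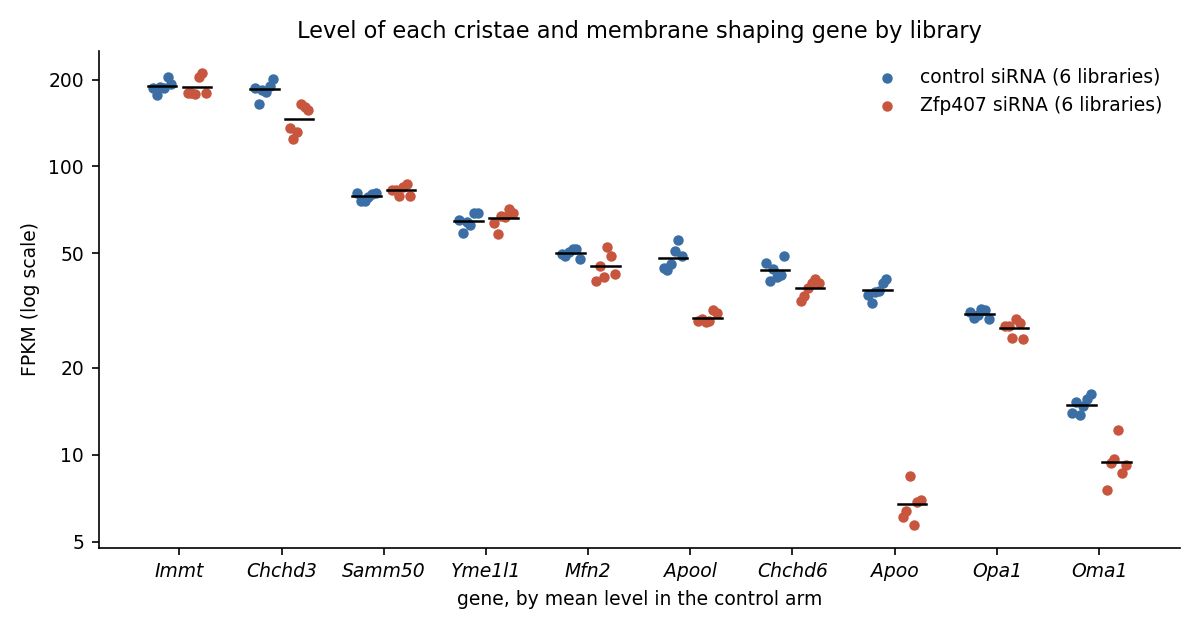
FPKM on a log axis for each of the 10 genes, ordered by mean control level, 1 point a library and a bar at the mean of each arm (control blue, Zfp407 siRNA red). Apoo goes from 37.3 to 6.75 FPKM, Apool, Chchd3 and Oma1 also have arms that do not overlap, and Immt, Samm50 and Yme1l1 overlap.

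Of the fusion genes, Opa1 fell slightly. It held 31.3, 29.8, 30.4, 32.1, 31.8 and 29.6 FPKM in control and 28.0, 27.9, 25.5, 29.7, 28.6 and 25.3 FPKM in knockdown libraries. Only knockdown library 4 reached the control range, and by a small margin. The mean fell from 30.8 ± 1.03 to 27.5 ± 1.74 FPKM (SD, n = 6 each), a log2 difference of -0.16 ± 0.04 (SE) with an adjusted p of 0.0123 by limma. Mfn2 held 49.6, 49.0, 50.5, 51.9, 51.6 and 47.9 FPKM in control and 39.9, 45.3, 41.5, 52.7, 49.0 and 42.5 FPKM in knockdown libraries. Its knockdown libraries spread widely, with 4 below all controls, library 5 among them and library 4 above all. The log2 difference was -0.15 ± 0.06 (SE), with a 95% interval of -0.29 to -0.02 and an adjusted p of 0.0738 by limma. Without knockdown library 4 the difference was -0.20 (adjusted p = 0.0107 by limma), and without library 5 it was -0.18 (adjusted p = 0.0492 by limma).

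The 2 proteases that cut OPA1 differed. OMA1 is a stress-activated metalloprotease that removes the membrane anchor of OPA1. Oma1 held 14.0, 15.2, 13.7, 14.8, 15.6 and 16.3 FPKM in control and 7.53, 9.33, 9.68, 12.2, 8.66 and 9.25 FPKM in knockdown libraries. The arms did not overlap, with knockdown library 4 nearest the controls and library 1 farthest. The mean fell from 14.9 ± 0.975 to 9.44 ± 1.54 FPKM (SD, n = 6 each), a change of -36.8% and a log2 difference of -0.62 ± 0.09 (SE), with an adjusted p of 0.000177 by limma and an exact permutation p of 0.0022. Yme1l1, whose ATP-dependent protease also turns over lipid transfer proteins, held 64.95, 58.95, 64.4, 62.8, 68.7 and 69.0 FPKM in control and 63.6, 58.5, 67.3, 67.03, 71.1 and 69.2 FPKM in knockdown libraries. The 2 ranges nearly coincided, and the log2 difference was 0.03 ± 0.05 (SE), with a 95% interval of -0.09 to 0.14 and an adjusted p of 0.717 by limma. The level of Oma1 relative to Yme1l1 went from 0.231 ± 0.0164 to 0.143 ± 0.0241 (SD, n = 6 each), with ranges of 0.213 to 0.258 and 0.118 to 0.182.

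Counted over the 9 members other than Apoo, 5 were called lower (Apool, Oma1, Chchd3, Chchd6 and Opa1) and 0 higher, at an adjusted p under 0.05 by limma over all rows. Of the 14706 rows tested, 24.8% were called lower and 11.6% higher. Samm50 became the 1 call upward under both other scalings. The median log2 difference of the 9 was -0.16, against -0.05 over all rows tested. All 10 members had a mean of at least 1 FPKM across the 12 libraries, the condition for being tested, in each arm taken alone as well. When the test asked for more than a fold of 1.2, Apool (adjusted p = 0.000341 by limma) and Oma1 (adjusted p = 0.0154 by limma) were still called lower, 2 of 9, where 3.69% of all rows were. The arms lay apart with the knockdown arm lower for Apool, Chchd3 and Oma1, 3 of 9, and for 13.9% of all rows. With libraries centred on their medians, the table as a whole gave 3146 rows lower and 2307 higher, against 3648 and 1712 as deposited.

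**Figure D3:**
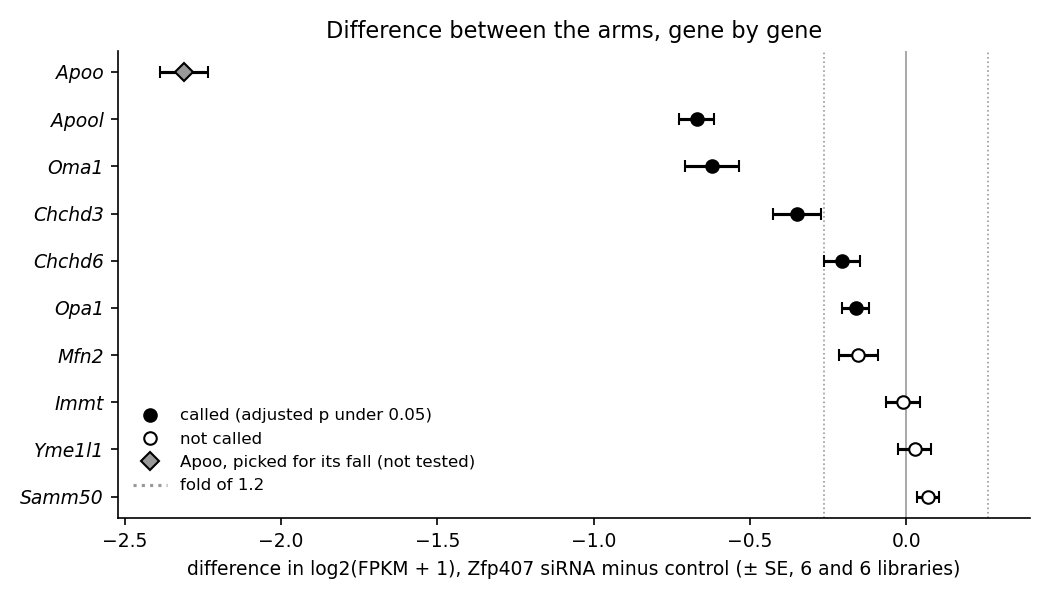
Difference in log2(FPKM + 1), Zfp407 siRNA minus control, for each gene with its SE (6 libraries an arm), filled where called, open where not, and a grey diamond for Apoo, which was selected on its fall. Apoo stands at -2.31, Apool and Oma1 at -0.67 and -0.62 lie well past the dotted line of a 1.2-fold fall, and Immt, Yme1l1 and Samm50 sit near 0.

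The smaller falls are of the size of a term that separates whole arms. In rows with a mean under 0.5 FPKM, what 1 read is worth can be read off. Comparing the arms, the value differed in 325 of 1089 such rows (29.8%), taking a log2 difference above 0.01 as differing. The median size in those 325 rows was 0.16, and the 90th percentile of the whole set was 0.22, where rows differing by 0.5 or more had been left out. Within an arm it differed in 6 of 467 rows (1.28%) for control and 4 of 515 rows (0.777%) for knockdown libraries. The falls of Opa1 and Chchd6 and the lower mean of Mfn2 are no larger than this and cannot be told apart from it. Those of Apoo, Apool, Oma1 and Chchd3 are larger than that percentile, the last without a call against a fold of 1.2 (adjusted p = 0.877 by limma). Because rows differing by 0.5 or more had been left out, the percentile cannot set these falls apart from such a term. The size of the term at the members' own levels was not measured. In bulk RNA, fewer cells of a type and less RNA per cell cannot be told apart either. The authors' deposited table gives Chchd3 a log2 fold change of -0.34 with a q-value of 0.884. It gives Oma1 one of -0.62 with a q-value of 0.99999. Neither is marked as significant there, nor are Chchd6 and Opa1. Of the members called lower here, only Apool is so marked.

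The order of levels among the 10 genes shifted mainly through Apoo and Apool. In control libraries Immt (189.8 FPKM) and Chchd3 (185.0 FPKM) led with overlapping ranges, followed by Samm50 and Yme1l1. Mfn2, Apool, Chchd6 and Apoo came next, each overlapping its neighbour, and then Opa1 and Oma1, each apart from the gene above. In knockdown libraries Immt lay apart from Chchd3, Apool dropped below Chchd6 to overlap Opa1, and Apoo was last, overlapping Oma1. Apoo therefore went from the eighth place to the tenth.

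Individual knockdown libraries did not deviate alike in all genes. Library 4 was the nearest to control, or past it, for Oma1, Chchd3, Opa1 and Mfn2, yet it held the lowest Apoo value of all, 5.70 FPKM. Library 3 held the highest Apoo value, 8.47 FPKM, and the lowest Apool value, 28.8 FPKM. Knockdown library 6, with its high mitochondrial-chromosome share, was within the range of the other knockdown libraries for Apoo, Apool and Oma1. For Opa1 it held the lowest value of any library, 25.3 FPKM, and without it the log2 difference was -0.14 in place of -0.16. Leaving it out kept all 5 members called lower.

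**Figure D4:**
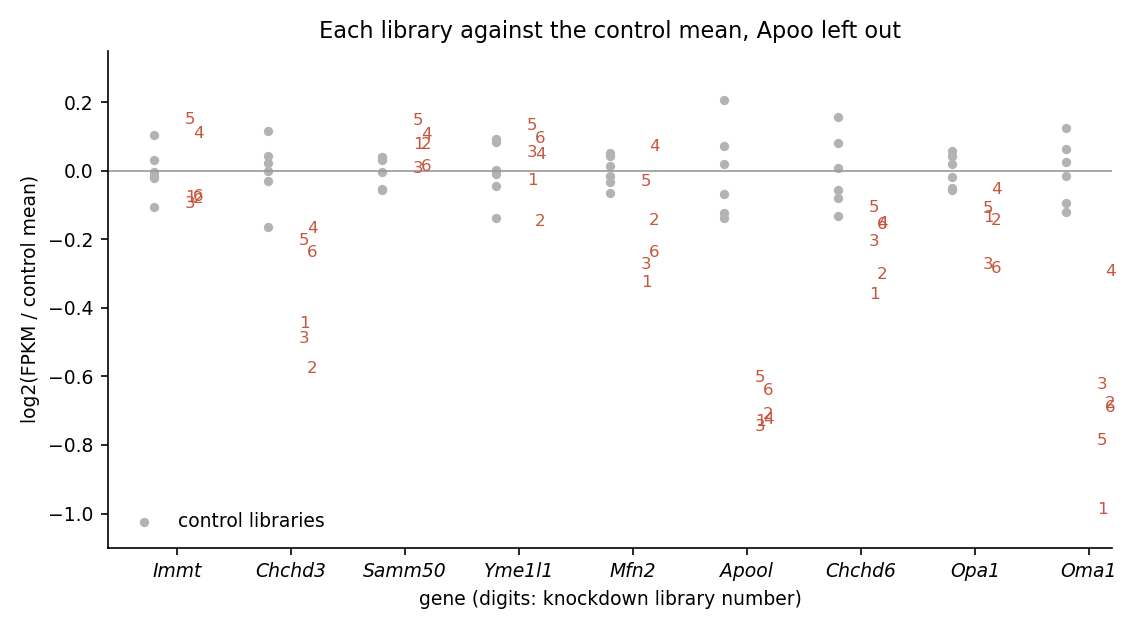
log2 of each library's FPKM over the mean of the control libraries for the 9 genes other than Apoo, control libraries as grey points and knockdown libraries by their number in red. All knockdown libraries lie below all grey points for Apool, Chchd3 and Oma1, and library 4 lies highest for Oma1, Mfn2 and Opa1.

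Over the 12 libraries, the values of the members tracked Apoo to different degrees. Pearson correlations of log2(FPKM + 1) with Apoo were 0.97 for Apool, 0.90 for Oma1, 0.81 for Chchd3, 0.77 for Chchd6, 0.73 for Opa1 and 0.57 for Mfn2. They were 0.06 for Immt, -0.11 for Yme1l1 and -0.63 for Samm50. The 12 libraries share the contrast between the arms on which Apoo was selected, so these values describe likeness and carry no test. Among 13313 rows with a single gene name, the 5 most like Apoo were Apoo-ps (0.998), Hbxip (0.995), Ndufa1 (0.995), Gm12816 (0.995) and Gm7110 (0.994). Within the control arm alone Apoo correlated at 0.73 with Apoo-ps, 0.82 with Hbxip and 0.75 with Ndufa1, and within the knockdown arm at 0.87, 0.80 and 0.83, with 6 libraries each. For Gm12816 these were 0.74 and 0.46, and for Gm7110 0.52 in the control arm and none in the knockdown arm, where it is listed at 0.

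Of these rows, Ndufa1 shares chromosome X with Apoo and the others lie elsewhere. Hbxip, which encodes a subunit of the Ragulator complex on lysosomes, went from 39.0 ± 3.38 to 12.4 ± 1.37 FPKM (SD, n = 6 each). Ndufa1 encodes a subunit of respiratory complex I and went from 238.1 ± 25.0 to 55.4 ± 8.81 FPKM (SD, n = 6 each). The row Gm12816, a processed pseudogene on chromosome 4, went from 18.5 ± 0.815 to 0.0477 ± 0.0244 FPKM (SD, n = 6 each). Gm7110 averaged 9.12 FPKM in control libraries and is listed at 0 in all 6 knockdown libraries. Like Apoo, these rows are described by the contrast that chose them and were not tested.

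Around Apoo on X, 18 named rows lay within 250 kb, of which 5 were expressed enough to test and 1 was called, lower. With 24.8% of all rows called lower, so small a count is not a result about the neighbourhood. The called row was Gspt2, a translation termination factor gene 219.0 kb away, which fell from 2.90 ± 0.196 to 1.56 ± 0.172 FPKM (SD, n = 6 each), with arms apart, a log2 difference of -0.61 ± 0.06 (SE) and an adjusted p of 7.3e-06 by limma. The others, Klhl15 (0.02, adjusted p = 0.922 by limma), Zfx (0.06, adjusted p = 0.528), Eif2s3x (0.12, adjusted p = 0.0630) and Maged1 (0.13, adjusted p = 0.0676), had log2 differences above 0 that did not pass the threshold. Beside Apool, 1 of 11 named rows within the same distance was tested, Gm6335, which was lower by -0.18 (adjusted p = 0.00610 by limma).

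Further genes of mitochondrial membranes were read from 8 lists of 100 genes in all, of which 91 were tested. Of these, 19 were called lower (20.9%) and 13 higher (14.3%), with a median log2 difference of 0.03. These shares lie near those of all rows. Centred on library medians the counts were 14 lower and 20 higher, and after quantile normalization 13 and 17, so the balance of directions depended on the scaling. As for the members, differences of up to about 0.22 on the log2 scale, rises and falls below included, cannot be told apart from the term that separates the arms. Larger ones are not set apart from it either. That value is a 90th percentile, and rows differing by 0.5 or more had been left out. With 1 library left out, 10 to 20 were lower, with the fewest without control library 5 (10), control library 1 (11) and knockdown libraries 1 (11), 2 (12) and 3 (12). Against a fold of 1.2, 1 remained lower (Triap1) and 0 higher.

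Of the remaining MICOS subunits and partners, 2 of 11 were lower and 2 higher (18.2% each, beside 24.8% and 11.6% of all rows). Mic13, a bridging subunit listed in the table as 2410015M20Rik, held 141.7 to 166.7 FPKM in control and 103.6 to 129.0 FPKM in knockdown libraries, with arms apart. Its log2 difference was -0.43 ± 0.06 (SE), with an adjusted p of 0.000225 by limma. Minos1, the MIC10 subunit that curves the membrane at cristae necks, went from 202.3 ± 18.3 to 234.0 ± 28.5 FPKM (SD, n = 6 each), a log2 difference of 0.20 with an adjusted p of 0.0810 by limma. Aifm1, an oxidoreductase that works with the import receptor for cysteine-rich proteins, fell (-0.22), while that receptor, Chchd4, rose (0.30). Chchd10, a small protein of the space between the membranes, rose from 5.48 ± 1.11 to 8.81 ± 1.74 FPKM (SD, n = 6 each), a log2 difference of 0.60 with an adjusted p of 0.00355 by limma. Across MICOS itself, Apoo, Apool, Mic13 and Chchd3 were lower with arms apart, Chchd3 by the least of them. Chchd6 was lower by less still, with overlapping arms, and Immt and Minos1 were not called. Apoo was selected for its fall, and 13.9% of all rows had arms apart with the knockdown arm lower. Against a fold of 1.2, Apool was still called (adjusted p = 0.000341 by limma). Mic13 (adjusted p = 0.131 by limma) and Chchd3 (adjusted p = 0.877 by limma) were not. The list of these subunits is therefore a description, not a result about the complex.

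Of the division and movement genes, 4 of 14 were lower and 4 higher (28.6% each, beside 24.8% and 11.6% of all rows), and under either other scaling 2 were lower and 4 higher. Dnm1l, the GTPase that pinches mitochondria apart, fell from 37.6 ± 0.529 to 31.5 ± 2.38 FPKM (SD, n = 6 each), a log2 difference of -0.25 with an adjusted p of 0.0011 by limma. Of its adaptors on the outer membrane, Fis1 rose by 0.30, Mief1 by 0.18 and Mief2 by 0.33, while Mff had a log2 difference of 0.03 and an adjusted p of 0.777 by limma. The ubiquitin ligase gene March5 (-0.16) and the transport adaptor gene Trak1 (-0.16) fell. Mfn1, the partner of Mfn2 in outer membrane fusion, had a log2 difference of -0.13 and an adjusted p of 0.387 by limma.

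Among cardiolipin and phosphatidylethanolamine genes, 3 of 10 were lower and 2 higher, beside 24.8% and 11.6% of all rows, and under either other scaling 1 was lower and 2 higher. Triap1, which with Prelid1 forms a carrier that brings phosphatidic acid to the inner membrane, fell from 38.0 ± 3.13 to 27.1 ± 1.26 FPKM (SD, n = 6 each), a log2 difference of -0.47 with arms apart. Prelid1 fell by 0.15 and Crls1, the cardiolipin synthase, by 0.19 on the same scale, while Cds2 rose by 0.34 and Pgs1 by 0.12. Of 11 inner membrane proteases and scaffolds tested, 2 were lower (18.2%), the peptidase genes Immp2l (-0.57) and Htra2 (-0.25). There were 0 higher, beside the same 24.8% and 11.6% of all rows.

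Genes that stand for mitochondrial content were not all called lower. Of 11 references for mitochondrial mass, 3 were lower (27.3%), citrate synthase Cs (-0.33), Sdha of complex II (-0.30) and the chaperone Hspd1 (-0.27). Of the same list 0 were higher, and the median was 0.06. Over all rows, 24.8% were called lower and 11.6% higher, so counts in this and the next lists are not a result about them. ATP synthase membrane and dimer subunits had 1 of 8 lower, Atpif1 (-0.20), and 2 higher, 2010107E04Rik (0.39) and Atp5k (0.25). Of 17 import genes, 3 were lower, Dnajc19 (-0.23), Timm50 (-0.22) and Tomm34 (-0.14), and 1 higher, Timm10 (0.42). Of 9 regulators of biogenesis, Nrf1 was lower (-0.17) and the coactivator genes Ppargc1b (0.31) and Pprc1 (0.28) were higher. The medians of all the lists lay between -0.08 and 0.14. On the log2 scale, Apool and Oma1 had lower values than every called gene of the lists. Apoo was selected for its fall, so its own place below them was given in advance. Members and lists were chosen with earlier results known, so this order is a description only.

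**Figure D5:**
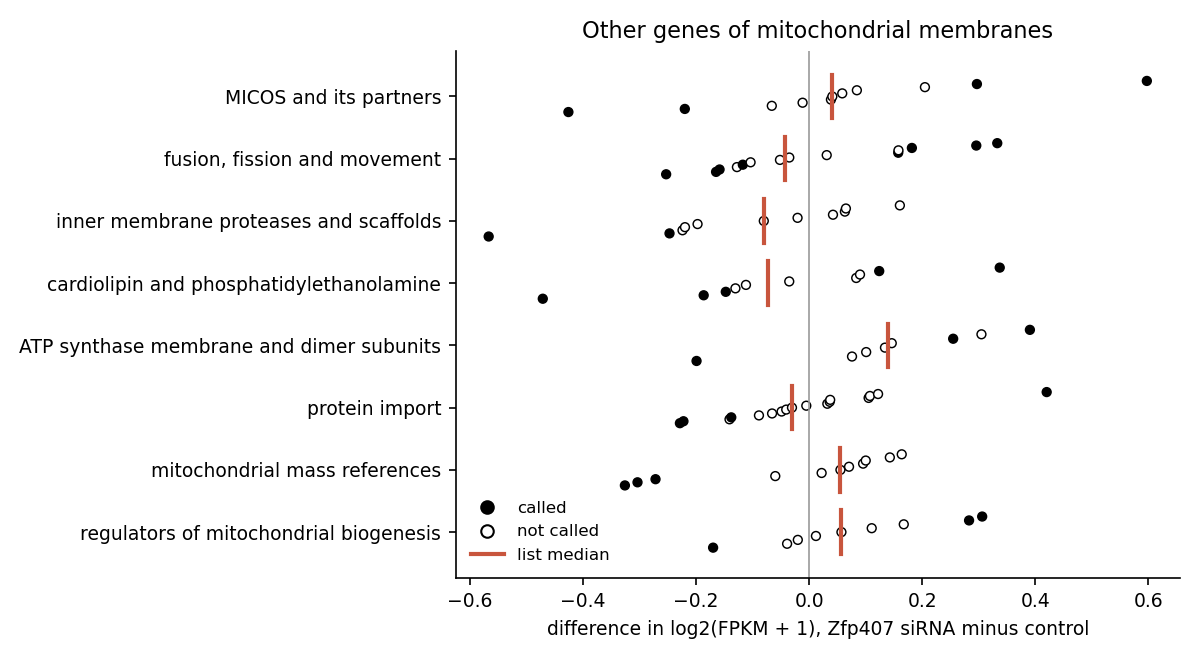
Difference in log2(FPKM + 1), Zfp407 siRNA minus control, for the tested genes of 8 lists, filled where called and open where not, with a red bar at each list's median. The medians lie between -0.08 and 0.14, and called genes lie on both sides of 0 in 6 of the 8 lists.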

How the data were processed

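The deposited data were 1 table of FPKM values per gene row and library, as the authors made them. The authors' FPKM of each arm, log2 fold changes, p-values and q-values stand beside them, per the file headers. Tools listed without order in the submitters' processing notes are Cufflinks 2.0.2, Bowtie2 2.0.0.7, TopHat2 2.0.5 and SAMtools 0.1.18.0. The sources used here give neither the genome build nor the annotation nor whether strand was kept. The loci of all 10 members overlapped the gene of that name in GENCODE M21 on GRCm38, and 8 shared an end within 1 base, so positions are given on that build, counted from 1, from the table's own loci. The position given for Apoo-ps is instead that of the annotated gene. The locus of its row is wider, 107413865 to 107414767. The loci of Chchd3, Mfn2 and Yme1l1 hold 2 rows each, between which reads had to be divided.

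The test was limma 3.58.1 (R 4.3.3, with an intensity trend) on log2(FPKM + 1), run two-sided on the 14706 rows whose mean reached 1 FPKM, with Benjamini-Hochberg adjustment over all of them and a threshold of 0.05. FPKM is not a count, so no count test was run. Exact permutation tests over all divisions of the 12 libraries used the difference in mean log2(FPKM + 1), were run for 9 members and are not adjusted. Their smallest p is 0.0022. The p-values measure the spread between electroporations of 1 line and treat both siRNAs as 1 treatment. A test against a minimum fold of 1.2 used limma's treat. The method was also tested on simulated data, drawn with independent noise and no term that separates whole arms. That test therefore cannot show how the calls stand against such a term. The 50-base comparison used GENCODE M21 transcripts, with both strands searched.

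All members were named. Of the other lists, the called genes with the 3 largest falls and 3 largest rises were named, with Minos1, Mic13, Mfn1 and Dnm1l whatever their values. Members, lists and tests were chosen with earlier results of these data known. Of the 100 listed genes, 92 matched a row by symbol or synonym. Adding the Apoo-ps row to Apoo was an alternative chosen after seeing the data. No library held the same values as another.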

Additional observations from a re-analysis of the deposited data

How the results depend on the processing

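The 5 members called lower were 5 under another pseudocount, filter, scaling or variance model, 5 to 6 when 1 library was left out, and 2 against a fold of 1.2. Members called higher went from 0 to 1 with libraries centred on their medians and to 1 after quantile normalization, Samm50 each time. Chchd3, Chchd6 and Opa1 were not called against a fold of 1.2, and Mfn2 was called without knockdown library 4 or 5. Over the further lists, genes called lower went from 19 to 1 and genes called higher from 13 to 0 against a fold of 1.2, and 20 were higher with median centring. Leaving out 1 library gave 10 to 20 lower, with 11 without control library 1, 10 without control library 5, 11 without knockdown library 1 and 12 without knockdown library 2 or 3, and 9 to 17 higher. Over all rows, 543 were lower and 313 higher against a fold of 1.2, and leaving out 1 library gave 3257 to 3875 lower and 1518 to 1752 higher. The value for Apoo lay between -2.46 and -2.27 under 20 alternatives. The cause of these shifts was not tested. No direction reversed in a called member. Absolute depth is unknown, so no counting interval can be given. No paired analysis was possible because the knockdown columns carry no mark that ties them to a numbered sample.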
